A study of Mus musculus with 10 samples.

Results

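The Fos and Jun families and a set of other immediate early genes were followed in mouse embryos at embryonic day 5.5. The genes were Fos, Fosb, Fosl1, Fosl2, Jun, Junb, Jund, Egr1, Ier2 and Ier3. Every probe set, the group of short probes that reports a transcript on an Affymetrix array, was taken if its platform annotation named exactly 1 symbol and that symbol was 1 of these 10. This gave 14 of 45137 probe sets that are not controls. On array type MOE430A there were 12 of 22626, which cover all 10 genes, and on MOE430B there were 2 of 22511, for Fosl2 and Jund.

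The study compared 2 pieces cut from the embryo and the whole embryo, which was hybridised for normalization per the series description. All samples came from untreated B6SJLF1×CerlP-GFP matings, in which a reporter driven by the Cer1 promoter makes the anterior visceral endoderm fluoresce. The anterior distal fragment (Ad) was cut around that fluorescent endoderm and took in the epiblast beneath it, while the posterior proximal fragment (Pp) was cut from the facing side, below the extraembryonic border, and took in proximal visceral endoderm and epiblast. Linearly amplified RNA was hybridised to 5 arrays of each type, a pair of Ad arrays (replicates 1 and 2 on MOE430A, 3 and 4 on MOE430B), a pair of Pp arrays numbered in the same way and 1 whole-embryo array. Whether replicates are separate embryos or pools is not labelled, and p-values cover the spread among these arrays alone, which may be technical. The labels give the same dissection text for every sample and do not say how the whole embryo was freed from the uterus or how long each sample waited before lysis.

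Immediate early genes are transcribed soon after a cell receives a stimulus, without the need for new protein. Proteins of the Fos family pair with proteins of the Jun family to form AP-1, a transcription factor of the bZIP class, and Egr1 is a zinc finger transcription factor induced by many of the same signals through serum response factor. Handling and cutting of tissue is a known trigger of these genes, and so are growth factors and inflammatory signals in tissue that is left alone.

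The windows of 250 bases just upstream of the RefSeq start sites (assembly GRCm38.p6) were searched for known control motifs, and 7 of the 10 genes had a window in the table used. Those of Fos, Ier3 and Fosl2 are printed because these genes had the largest differences between the fragments and the whole embryo. Fos lies on the forward strand at chr12:85473640-85473889, Ier3 on the forward strand at chr17:35821463-35821712 and Fosl2 on the forward strand at chr5:32136222-32136471. Capitals mark every match to a searched motif.
Fos: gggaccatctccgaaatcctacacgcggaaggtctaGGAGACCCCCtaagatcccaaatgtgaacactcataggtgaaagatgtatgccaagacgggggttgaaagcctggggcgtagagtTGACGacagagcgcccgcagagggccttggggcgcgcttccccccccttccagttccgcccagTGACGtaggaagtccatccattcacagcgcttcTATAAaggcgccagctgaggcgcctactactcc
Ier3: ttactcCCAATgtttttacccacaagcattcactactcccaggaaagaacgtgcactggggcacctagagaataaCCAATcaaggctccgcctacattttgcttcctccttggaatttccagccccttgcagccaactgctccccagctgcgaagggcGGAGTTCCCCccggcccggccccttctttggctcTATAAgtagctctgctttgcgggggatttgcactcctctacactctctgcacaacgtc
Fosl2: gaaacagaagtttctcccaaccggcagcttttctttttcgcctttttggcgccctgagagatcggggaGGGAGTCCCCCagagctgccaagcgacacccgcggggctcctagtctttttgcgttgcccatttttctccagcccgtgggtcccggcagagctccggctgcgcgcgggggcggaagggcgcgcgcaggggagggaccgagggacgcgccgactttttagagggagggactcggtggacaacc
The motifs, on both strands, were TGACG (the core of the cAMP response element), TGANTCA (the AP-1 site), TATAA (the TATA box), CCAAT (the CAAT box), the kappa B motif of NF-kappa B and the CArG box of serum response factor. In the Fos window TGACG lay at -129 to -125 and at -66 to -62 from the start, TATAA at -33 to -29, and a kappa B match at -214 to -205 on the reverse strand. The Ier3 window held CCAAT at -244 to -240 and at -175 to -171, a kappa B match at -92 to -83 on the reverse strand and TATAA at -58 to -54. The capitals in the Fosl2 window are a pair of overlapping kappa B matches, at -182 to -173 on the forward strand and at -181 to -172 on the reverse strand. A kappa B match was found in 4 of the 7 members' windows (Fos, Fosb, Fosl2 and Ier3), against 3.9% of all 32851 windows. TGACG was found in 3 of the 7 (Fos, Fosb and Junb; 17.8% of all windows), CCAAT in 3 (Jun, Junb and Ier3; 33.8%) and TATAA in 2 (Fos and Ier3; 22.8%). The AP-1 site and the CArG box were matched in 0 of the 7, and in 6.75% and 1.47% of all windows. Sites farther upstream than 250 bases were not searched, and Egr1, Fosl1 and Ier2 had no window. The Jund window held no match to any of the 6 motifs. A match describes these letters and is not evidence of a bound site.

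Values are the deposited MAS5 signal in arbitrary units, with array medians of 590 to 644 on MOE430A and 56.8 to 61.0 on MOE430B, so the signals of the 2 types are not comparable. Differences were fitted with limma on log2(signal + pseudocount), and probe sets were tested when their mean lay above the 40th percentile, a signal of about 464 on MOE430A and 37.2 on MOE430B. By this filter 6 of the 12 members' probe sets on MOE430A were tested and 6 were not. Fos, Fosb, Junb and Egr1 had no tested probe set, so a fit of all 22626 probe sets is given for those 6. Both probe sets on MOE430B were tested. A call is a Benjamini-Hochberg adjusted p under 0.05 over all probe sets of that fit. The whole-embryo array has no replicate and is assumed to vary like the fragments. It enters the filter mean, so a probe set that is low in the fragments can be tested through this array alone.

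**Figure D1:**
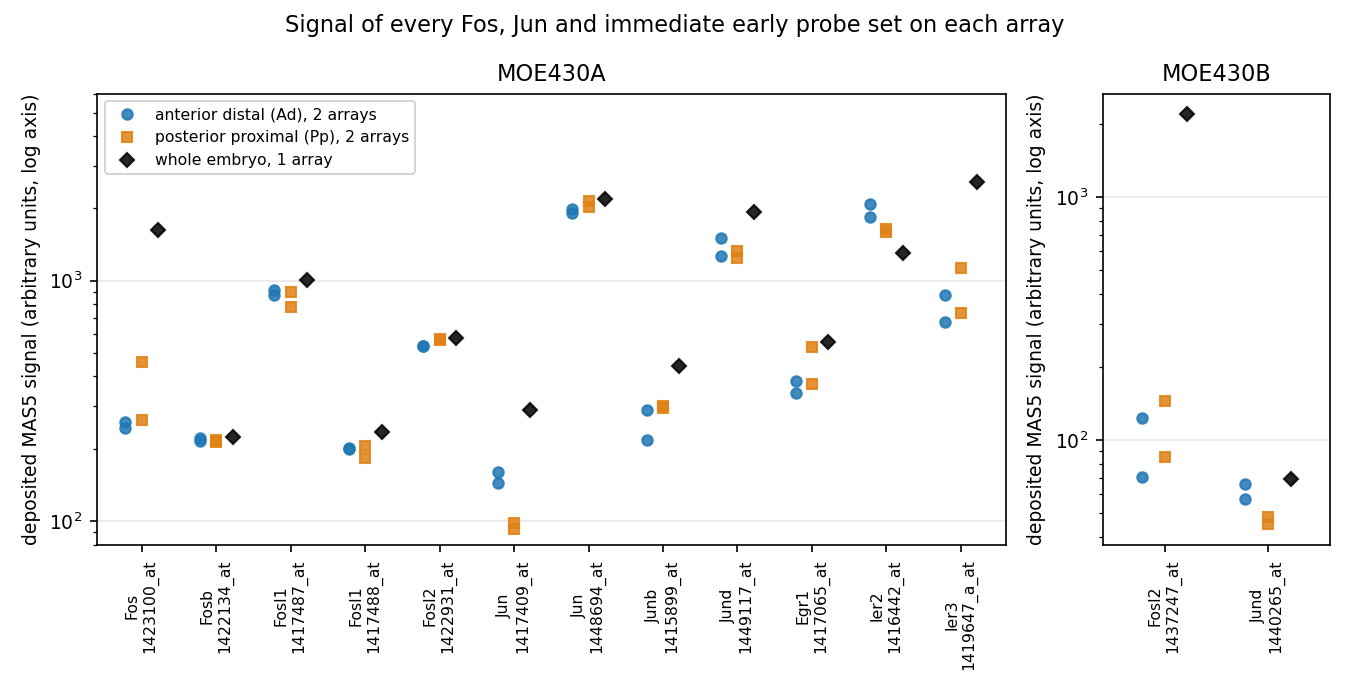
Deposited signal (arbitrary units, log axis, with a scale of its own for each array type) of the 14 probe sets, with 1 point per array: circles are the 2 Ad arrays, squares the 2 Pp arrays and diamonds the whole embryo. The whole embryo stands highest for every probe set except that of Ier2, and the widest gaps are at Fos (1619 against at most 460) and at the MOE430B probe set of Fosl2 (2194 against at most 145).

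The dissected fragments held less RNA of Ier3 and, by 1 of its 2 probe sets, of Fosl2 than the whole embryo, and less of Fos in the fit with no filter on low signals. The signal of Fos was 306 ± 103 (SD, n = 4) in the fragments against 1619 in the whole embryo. A probe set of Fosl2 on MOE430B read 106 ± 34.2 (n = 4) and 2194, and Ier3 read 853 ± 205 (n = 4) and 2564. Ier2 went the other way, with 1791 ± 226 (n = 4) in the fragments against 1298 in the whole embryo. In these mixed samples, fewer cells that carry a transcript and less of it per cell cannot be told apart. The whole-embryo arrays also had the highest ratios of 3′ to 5′ signal for the control genes of each array type, a sign of RNA length: that of Actb was 5.87 against 3.69 to 4.50 in the fragments on MOE430A and 4.22 against 3.51 to 3.79 on MOE430B, and that of Gapdh was 1.60 against 1.40 to 1.57 and 1.49 against 1.19 to 1.34. The part of RNA length in the differences from the whole embryo was not tested.

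Of the 6 probe sets tested on MOE430A, Ier3 fell and Ier2 rose in the fragments relative to the whole embryo, where 9.78% of all 13575 tested probe sets were called (4.6% higher and 5.18% lower). Without centring the arrays, 338 probe sets were called higher and 966 lower, against 624 and 703 with centring and 353 and 797 after cyclic loess. In the fit of all probe sets 4 of the 12 were called, Fos, Ier3 and the fainter Jun probe set lower and Ier2 higher, where 6.26% of all were called (2.11% higher and 4.15% lower). On MOE430B Fosl2 fell and Jund was not called, where 2.21% of 13506 were called (0.407% higher and 1.81% lower). The median difference of the 6 tested members on MOE430A was -0.06 on the log2 scale, against 0.05 over all tested probe sets, and for the 12 in the unfiltered fit it was -0.17 against 0.04.

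As deposited, the whole embryo read above all 4 fragments for 11 of the 12 probe sets on MOE430A, an order found in 35.3% of all probe sets there. It read below all 4 only for Ier2 (21.3% of all probe sets). After each array was centred on its median, 6 of the 12 stood above all fragments (18.7% of all) and 2 below (43.8%). On MOE430B the whole embryo read above all fragments for both probe sets as deposited (21.9% of all) and after centring (22.6%). A whole-embryo signal at least 2-fold above the highest fragment was seen for Fos and Ier3 on MOE430A (1.75% of all probe sets) and for Fosl2 on MOE430B (2.69%).

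Fos (1423100_at), the founding partner of Jun in AP-1, read 243 and 258 in the Ad arrays, 264 and 460 in the Pp arrays and 1619 in the whole embryo. Both Ad arrays and Pp replicate 1 lay close together, Pp replicate 2 stood above them, and the whole embryo was 3.52 times the highest fragment. Every fragment lay below the filter signal, so the size of the difference depends on the pseudocount. The unfiltered fit gave -1.70 ± 0.18 (SE) on the log2 scale (adjusted p = 0.0106 in limma). With no filter that call was lost when Ad replicate 1 was left out (-1.69, adjusted p = 0.0739) or Ad replicate 2 (-1.72, adjusted p = 0.0730), where the residual spread came from the 2 Pp arrays and the size hardly moved. With the filter, Fos passed it once either Ad array was left out, with differences of -1.67 and -1.70. It also passed with the larger pseudocount and was called there (-1.38, adjusted p = 0.00511 in limma). As every fragment lay below the filter signal, Fos passed only through its whole-embryo value. These fits are therefore not separate support for the difference. With no pseudocount the difference was -2.36.

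Fosl2, a Fos-related antigen, gave different pictures on the 2 array types. Its MOE430B probe set 1437247_at read 70.6 and 123 in Ad, 85.4 and 145 in Pp and 2194 in the whole embryo. The Ad and Pp arrays overlapped, and the whole embryo was 15.1 times the highest fragment. The difference was -4.30 ± 0.33 (SE; adjusted p = 0.00221), which is 19.7-fold, and the call was kept whichever Ad or Pp array was left out (adjusted p 0.000412 to 0.0442 with and without the filter). The MOE430A probe set 1422931_at read 537 and 534 in Ad, 567 and 574 in Pp and 576 in the whole embryo. All 5 arrays lay within a narrow band just above the filter signal, and the difference of 0.04 (adjusted p = 0.762) turned to -0.04 without centring and to -0.005 after cyclic loess. Which transcripts the 2 probe sets report was not tested.

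The other Fos family members were not called in either comparison. Fosb (1422134_at), which like Fos carries a transactivation domain, read between 213 and 222 in the fragments against 223 in the whole embryo, all below the filter signal. Fosl1, also called Fra-1, had a tested probe set (1417487_at) at 911 and 872 in Ad, 774 and 898 in Pp and 1004 in the whole embryo. Its arrays overlapped between Ad and Pp, and the difference between fragments and whole embryo was -0.09 (adjusted p = 0.562). Its fainter probe set (1417488_at) read 183 to 205 in the fragments against 234 in the whole embryo, below the filter signal.

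Jun, the main transactivating partner in AP-1, has a pair of probe sets on MOE430A. The brighter, 1448694_at, read 1977 and 1911 in Ad, 2154 and 2024 in Pp and 2187 in the whole embryo. The whole embryo stood just above the Pp arrays, and the difference of -0.03 ± 0.075 (SE) was not called (adjusted p = 0.851). The second Jun probe set, 1417409_at, read 145 and 160 in Ad, 98.8 and 93.1 in Pp and 291 in the whole embryo. It lay below the filter signal on every array, and there the unfiltered fit gave -0.47 ± 0.062 (SE; adjusted p = 0.0199), a call lost when Ad replicate 1 was left out (adjusted p = 0.0897) or Ad replicate 2 (adjusted p = 0.0851). Its size depends on the pseudocount, from -1.17 with none to -0.29 with the larger one. The 2 Jun probe sets therefore disagreed in whether a difference was called.

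Jund, the Jun family member that is expressed in most resting cells, read on MOE430A (1449117_at) 1505 and 1261 in Ad, 1325 and 1241 in Pp and 1932 in the whole embryo. The whole embryo was above all fragments, and the difference of -0.39 ± 0.099 (SE) did not pass (adjusted p = 0.0671). It passed without centring (adjusted p = 0.0450 in limma). It also passed when Pp replicate 1 (-0.40) or Pp replicate 2 (-0.37) was left out. There the residual spread came from the 2 Ad arrays and calls over all tested probe sets rose. Those fits are therefore not separate support for a difference of Jund. The MOE430B probe set of Jund (1440265_at) read 57.4 and 65.8 in Ad, 45.2 and 48.4 in Pp and 69.5 in the whole embryo (difference -0.32, adjusted p = 0.360).

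Junb (1415899_at), a family member that can restrain Jun, read 291 and 217 in Ad, 296 and 300 in Pp and 442 in the whole embryo. All 5 values lay below the filter signal, and the unfiltered difference was -0.33 (adjusted p = 0.0944). Egr1 (1417065_at) read 384 and 341 in Ad, 374 and 531 in Pp and 558 in the whole embryo. Only Pp replicate 2 and the whole embryo lay above the filter signal, and the unfiltered difference of -0.24 was not called (adjusted p = 0.336). Without Pp replicate 2 the unfiltered difference of Egr1 was -0.32 and passed. There too the residual spread came from the 2 Ad arrays, and calls over all probe sets rose.

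Ier3 (1419647_a_at), a stress-inducible gene that acts on cell survival, read 671 and 871 in Ad, 735 and 1133 in Pp and 2564 in the whole embryo. The Ad and Pp arrays overlapped, and the whole embryo was 2.26 times the highest fragment. The difference was -1.29 ± 0.20 (SE; adjusted p = 0.0196 in limma), which is 2.45-fold. The call was lost when Ad replicate 1 was left out (adjusted p = 0.0808) or Ad replicate 2 (adjusted p = 0.0764).

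Ier2 (1416442_at), a small nuclear protein gene with rapid induction, read 1848 and 2085 in Ad, 1641 and 1589 in Pp and 1298 in the whole embryo. It was the single member for which the whole embryo lay below every fragment. The difference was 0.47 ± 0.091 (SE; adjusted p = 0.0340). The call was lost with a replicate block (adjusted p = 0.0555), in a fit that treats the 4 fragments as 1 group (adjusted p = 0.0622), and with Ad replicate 1 (adjusted p = 0.0800) or Ad replicate 2 (adjusted p = 0.119) left out.

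**Figure D2:**
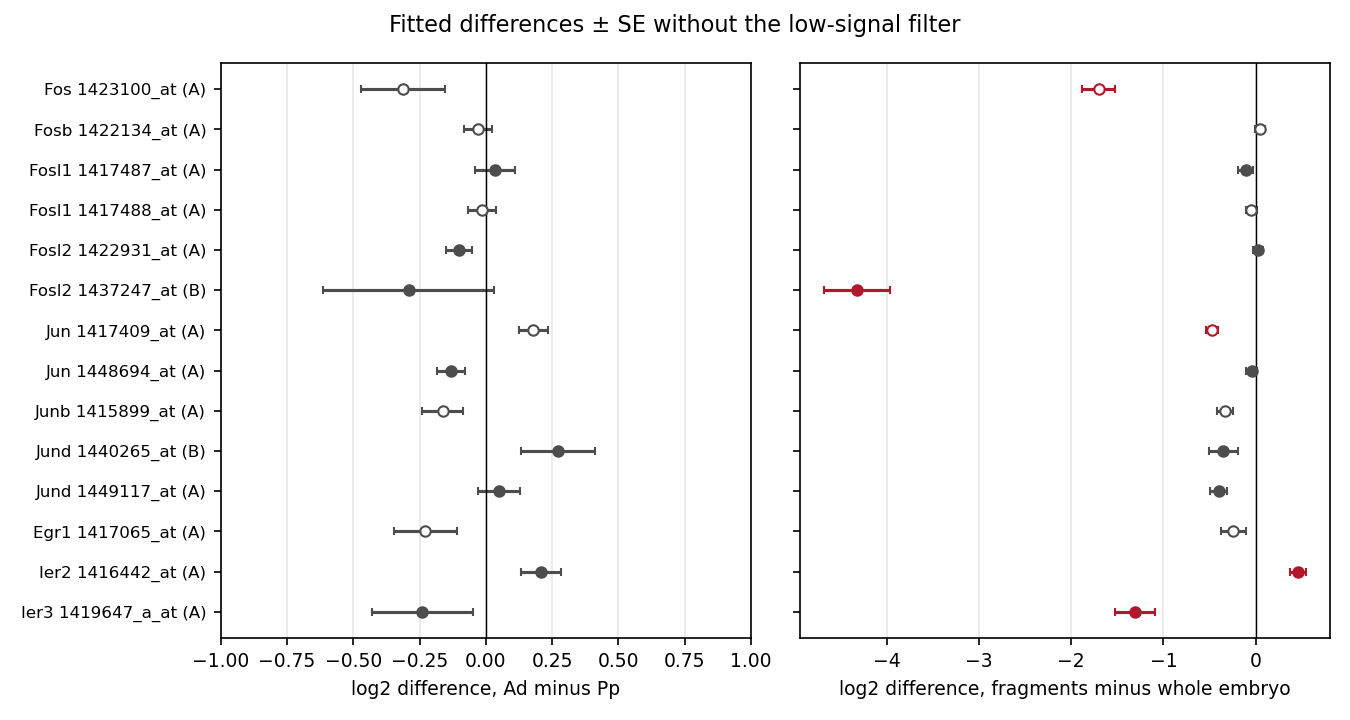
Fitted log2 difference ± SE of each member probe set in the fit of all probe sets, Ad minus Pp on the left and fragments minus whole embryo on the right (the panels have different scales; A and B name the array type). Open points lie below the filter signal and red points have an adjusted p under 0.05: 0 on the left, and on the right Fos, Fosl2 on MOE430B, the fainter Jun probe set and Ier3 lower and Ier2 higher in the fragments.

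Between Ad and Pp no member was called. On MOE430A 0 of the 6 tested probe sets passed in limma and 0 had an unadjusted p under 0.05, where 0.169% of all tested probe sets were called and 11.7% had an unadjusted p under 0.05. In the unfiltered fit 0 of 12 passed and 2 had an unadjusted p under 0.05, where 0.084% and 9.98% of all did. On MOE430B 0 of 2 passed and 0 had an unadjusted p under 0.05 (0.111% and 10.4% of all). With 2 arrays a side, these counts do not show that Ad and Pp held equal amounts. The median difference of the 6 tested members was -0.06, against -0.03 over all tested probe sets.

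The 2 fragments were separated without overlap for 6 of the 12 probe sets on MOE430A, an order that 41% of all probe sets showed. Ad was higher for Ier2 and for the fainter Jun probe set (28.4% of all). Ad was lower for Fos, Junb, Fosl2 and the brighter Jun probe set (12.6% of all). On MOE430B Ad was higher for Jund (24.9% of all; 39.3% either way), and the Fosl2 arrays overlapped. Among tested probe sets the largest of these differences was that of Jund on MOE430B, 0.25 ± 0.14 (SE; adjusted p = 0.580). Ier2 followed at 0.18 ± 0.082 (SE; adjusted p = 0.456) and the brighter Jun probe set at -0.16 ± 0.067 (SE; adjusted p = 0.433).

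The 2 Pp arrays differed from each other for several members. Pp replicate 2 was the highest of the 4 fragments for 5 of the 12 probe sets on MOE430A, those of Fos, Egr1, Ier3, Junb and Fosl2, an order that 18.6% of all probe sets showed. On MOE430B the second Pp array was the highest for Fosl2 (24.2% of all). For Fos Pp replicate 2 read 460 against 264 in Pp replicate 1, for Ier3 1133 against 735 and for Egr1 531 against 374. For Junb (300 against 296) and Fosl2 on MOE430A (574 against 567) the 2 Pp arrays lay close together. Without Pp replicate 1, which leaves Pp replicate 2 alone on its side, 2 members were called between Ad and Pp. The spread then came from the 2 Ad arrays, and 805 of all probe sets were called, against 23 with every array. These were Fos at -0.58 (adjusted p = 0.00132) and Ier3 at -0.52 (adjusted p = 0.0151), while without Pp replicate 2 Fos, at -0.10, lay below the filter and Ier3, at -0.02, did not pass. Markers of the extraembryonic ectoderm, the tissue just above the Pp cut, also differed between the Pp arrays. The summed signal of its 9 markers was 10127 in Pp replicate 1, 15936 in Pp replicate 2, 10355 to 10507 in Ad and 15930 in the whole embryo. Of these, the trophoblast factor Elf5 read 601 and 2432 in the 2 Pp arrays and Bmp4 read 573 and 2359. Their part in the member signals was not tested.

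Tissue markers were read beside the whole-embryo differences, because the whole embryo holds tissues that neither fragment was cut to contain. The 6 markers of the anterior visceral endoderm summed to 14659 to 18998 in Ad, 5196 to 5258 in Pp and 7451 in the whole embryo. Of the 6, 3 (Lefty1, Hesx1 and Lhx1) were called higher in Ad. Cer1, whose promoter drives the reporter, read 1532 and 1413 in Ad and 899 and 861 in Pp. It was not called (0.54, adjusted p = 0.0864 in limma). Hhex and Dkk1 were also higher in Ad but not called (adjusted p = 0.0528 and 0.250 in limma). Visceral endoderm and epiblast markers were present in all arrays, with sums of 59160 to 79554 and 28412 to 32466 in the fragments against 56417 and 22002 in the whole embryo. Of the tested genes of these 2 lists, 4 of 10 and 4 of 6 were higher in the fragments and 0 lower. Over all tested probe sets, 4.6% were called higher and 5.18% lower in the fragments on MOE430A, and 0.407% and 1.81% on MOE430B. Between Ad and Pp, 0.169% of those on MOE430A were called. The same shares apply to the marker counts that follow.

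The summed markers of the decidual stroma, the maternal tissue around the implanted embryo, stood highest over the fragments in the whole embryo. Their 9 genes on MOE430A summed to 4311 to 5546 in the fragments against 18858 in the whole embryo, 3.40 times the highest fragment. Of 7 tested genes, 4 were called lower in the fragments and 0 higher. The other 3, Des, Pgr and Esr1, were not called, with differences of 0.12, 0.065 and 0.15. Every fragment of Hoxa10 and Wnt4 and the fragment mean of Prl8a2 (331) lay below the filter signal. These called genes were therefore tested through their whole-embryo values. On MOE430B their 5 genes summed to 240 to 348 and to 5333, 15.3 times the highest fragment, and all 3 tested genes were lower in the fragments. The decidual prolactin gene Prl8a2 read 254 and 564 in Ad, 241 and 267 in Pp and 6063 in the whole embryo. Hand2 of the uterine stroma read 110 to 144 in the fragments against 2223 in the whole embryo on MOE430B, while its MOE430A probe set lay below the filter signal on every array.

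The marker lists of other tissues had smaller excesses. The 4 markers of ectoplacental cone and giant cells summed to 3912 to 4895 in the fragments against 9552 in the whole embryo, with 2 of 3 tested genes lower in the fragments. The 8 parietal endoderm markers summed to 15189 to 15469 in Ad, 10683 to 11263 in Pp and 21482 in the whole embryo. Of 5 tested, 4 were lower in the fragments than in the whole embryo. All 5 were higher in Ad than in Pp with an unadjusted p under 0.05 in limma (11.7% of all tested probe sets), and 0 were called. The 7 endothelial markers summed to 2726 to 2900 and 4604, with 0 of 3 called in limma and 1 with an unadjusted p under 0.05. The 11 markers of blood and leukocytes summed to 5234 to 5748 and 5942, with 0 of 6 called in limma and 1 with an unadjusted p under 0.05. No marker was at 0 on any array, but Tpbpa, Thbd, Plat, Hba-a1, Alas2, Ptprc, Cd68, Tek and Vwf lay below the filter signal on every MOE430A array. The part of any of these tissues in the signals of Fos, Fosl2 and Ier3 was not tested, and with 1 whole-embryo array per type it cannot be told apart from a difference in handling.

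**Figure D3:**
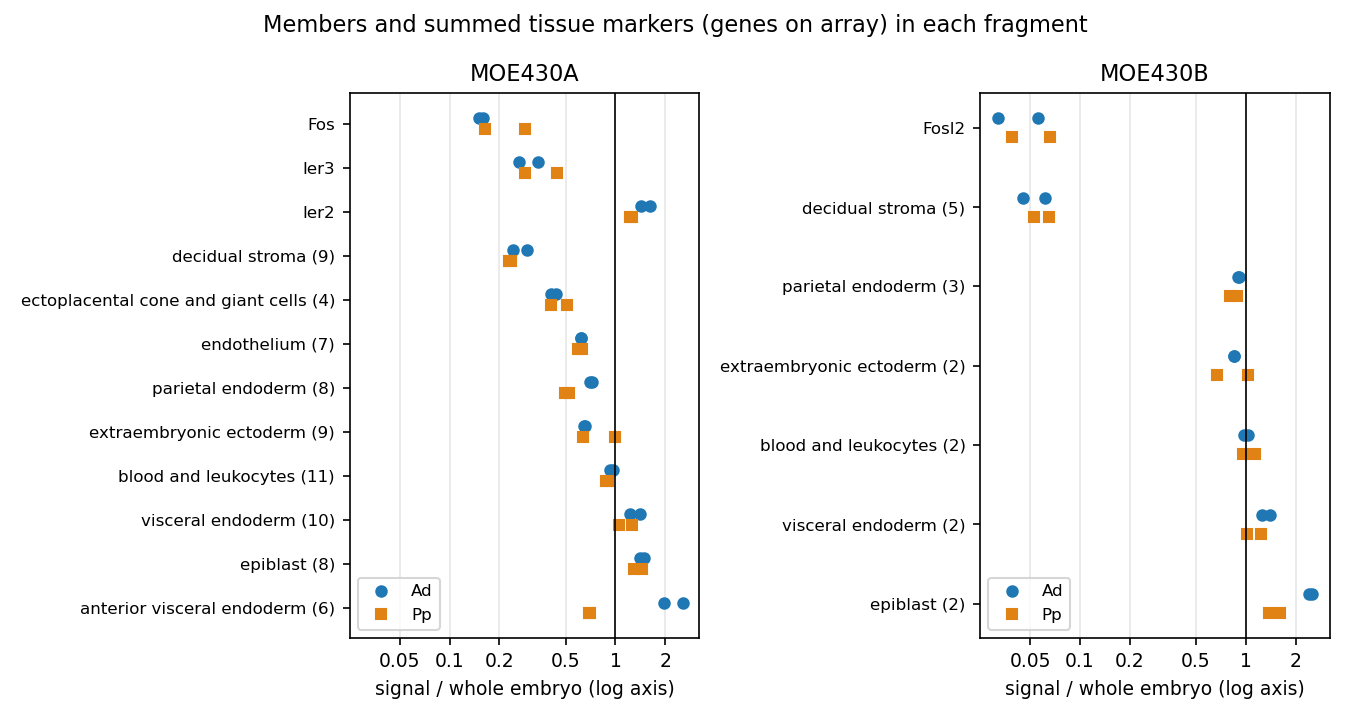
Signal of Fos, Ier3, Ier2 and Fosl2 and the summed signal of tissue marker lists (number of genes on the array in parentheses; lists with at least 2 genes) in each fragment array, divided by the whole-embryo array of the same type, on log axes with a line at 1. Circles are Ad and squares Pp. The decidual stroma lists stand within the joint range of Fos and Ier3 on MOE430A and that of Fosl2 on MOE430B. The list of ectoplacental cone and giant cells overlaps the upper part of the Ier3 range on MOE430A. Epiblast and visceral endoderm lists stand at or to the right of the line.

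The genes whose profile over the 5 MOE430A arrays was nearest to that of Fos, by the Euclidean distance between centred log2 profiles, were Anxa2 (distance 0.138), Sgpp1 (0.226) and Nfkbiz (0.251), where the median over all tested probe sets was 1.63. Anxa2 read 886 and 926 in Ad, 908 and 1267 in Pp and 4312 in the whole embryo. Its second Pp array and its whole embryo were high, as for Fos. The nearest to the brighter Jun probe set were Lin7b (0.0237), Adgrl4 (0.0246) and Gatc (0.0252), with a median of 0.262 over all. Those nearest to Egr1 were Stx7 (0.0360), Ctsz (0.0553) and Mydgf (0.0600), with a median of 0.459. The 5 arrays of such a profile share 1 whole-embryo array, and the flat profile of Jun lies near many others.

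Other immediate early genes were read by their brightest tested probe set per gene. Their counts on MOE430A stand beside 4.6% higher and 5.18% lower over all tested probe sets and an overall median of 0.05, and on MOE430B beside 0.407%, 1.81% and 0.03. Among 12 tested transcription factors of the Nr4a, Egr and Klf group on MOE430A, 1 fell in the fragments and 0 rose, with a median of -0.09. This was Klf6, a zinc finger factor, at 977 and 933 in Ad, 1525 and 1650 in Pp and 1841 in the whole embryo (difference -0.41, adjusted p = 0.0354). The call was lost without Ad replicate 1 or 2, where 0 of the list were called, and with the replicate block. Klf6 was also the largest difference of this list between Ad and Pp, at -0.68 (adjusted p = 0.0512). Its Ad arrays lay below its Pp arrays, and 1 gene of the list was called without centring, with no pseudocount, with the stricter filter and with an intensity trend. More of the list were called when either Pp array was left out, where calls over all tested probe sets rose as well. Myc, a growth regulator, read 452 and 506 in Ad, 662 and 734 in Pp and 827 in the whole embryo and was called in neither comparison (adjusted p = 0.178 for Ad against Pp and 0.106 for the fragments). Nr4a1, an orphan nuclear receptor of the early response, read 862 to 944 in the fragments against 978 in the whole embryo. Of the list, 7 genes were not tested since their means lay below the filter signal, among them Atf3, Egr2, Klf4 and Klf10. In the unfiltered fit 1 of the 7 fell, the bZIP repressor gene Nfil3, which read 204 to 261 in the fragments against 1009 in the whole embryo (-1.34, adjusted p = 0.00193, at most 0.0186 with an Ad or Pp array left out).

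Of 27 other immediate early response genes tested on MOE430A, 6 fell and 1 rose in the fragments, with a median of -0.13. Rgs2, a regulator of G protein signalling, read 318 and 477 in Ad, 495 and 424 in Pp and 6578 in the whole embryo (adjusted p = 0.000511), and on MOE430B it read 79.9 to 143 in the fragments against 2422 in the whole embryo (adjusted p = 0.00163). All fragments of Rgs2 lay far below the whole embryo on both array types. On MOE430A their mean (428) lay below the filter signal, so Rgs2 was tested there through its whole-embryo value. Nfkbia, the inhibitor of NF-kappa B, read 2491 ± 46.1 (SD, n = 4) in the fragments against 8018 in the whole embryo, 2.86-fold apart (adjusted p = 0.000511). The nuclear I-kappa-B-like gene Nfkbiz differed by -1.50 (adjusted p = 0.0117) and the small GTPase gene Rhob by -1.20 (adjusted p = 0.00137). On MOE430B Nfkbia read 127 to 223 in the fragments against 349 in the whole embryo and was not called (difference -0.92). Nfkbiz lay below the filter signal there, at 19.6 to 31.2 against 31.1, and was not called in the unfiltered fit. The RNA decay factors Zfp36l1 and Zfp36 differed by -0.70 and -0.64 (adjusted p = 0.0122 and 0.0132).

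Dusp6, a phosphatase that acts on ERK and is induced by Fgf signalling, was the member of that list that rose. It read 1858 and 2003 in Ad, 1684 and 1576 in Pp and 1077 in the whole embryo (difference 0.69, adjusted p = 0.00905), with the whole embryo below every fragment, as for Ier2. Dusp1, another early response phosphatase, read 887 and 938 in Ad, 796 and 1184 in Pp and 993 in the whole embryo (difference 0.02, adjusted p = 0.949). Its whole-embryo value lay within the spread of the fragments. The list had fewer calls without either Ad array and more without either Pp array, as was so over all tested probe sets. A stricter filter, at the 60th percentile, left 4. Of 3 genes below the filter signal, Gadd45g fell in the unfiltered fit (-0.36, adjusted p = 0.0485), with adjusted p up to 0.159 when an array was left out.

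The heat shock and stress list had 11 tested genes on MOE430A, of which 1 fell and 0 rose in the fragments, with a median of 0.0002. The co-chaperone gene Bag3 differed by -0.62 (adjusted p = 0.0160), a call lost without either Ad array. Hspa1b, an inducible Hsp70, read 1337 and 1017 in Ad, 1135 and 1439 in Pp and 1472 in the whole embryo. The fragments of Hspa1b spread over most of the distance to the whole embryo, and it was called in neither comparison (adjusted p = 0.643 for Ad against Pp and 0.594 for the fragments). Of 3 genes below the filter signal, the small heat shock protein gene Cryab fell in the unfiltered fit. It read 103 to 168 in the fragments against 1723 in the whole embryo (-2.34, adjusted p = 0.00135, at most 0.0118 with an Ad or Pp array left out). On MOE430B 0 of 4 were called in limma, with 0 at an unadjusted p under 0.05.

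Of 20 upstream kinases and factors tested on MOE430A, 6 fell and 0 rose, with a median of -0.04. Srf, the serum response factor, differed by -0.61 (adjusted p = 0.0163), its ternary complex partner Elk4 by -0.55 (adjusted p = 0.0121) and the p38 pathway kinase gene Map2k3 by -0.55 (adjusted p = 0.0251). Fbxw7, part of a ubiquitin ligase that marks Jun for decay, differed by -0.44 (adjusted p = 0.0226). Nab1, a co-repressor of Egr1, differed by -0.36 (adjusted p = 0.0439), and the Jun kinase gene Mapk9 by -0.35 (adjusted p = 0.0414). The count was 3 with the replicate block and 4 in the fit of 2 groups, where 865 and 944 of all tested probe sets were called. The calls were lost without either Ad array, where calls over all tested probe sets fell as well. On MOE430B 2 of 9 fell, the Srf coactivator gene Mrtfb by -1.58 and the kinase gene Rps6ka5 by -1.40 (adjusted p = 0.00459 and 0.0094). The MOE430A probe set of Mrtfb, below the filter signal, read 369 to 420 in the fragments against 407 in the whole embryo. Its unfiltered difference of 0.058 was not called, so the 2 probe sets of Mrtfb disagreed.

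Of 12 tested AP-1 partners of the bZIP class on MOE430A, 0 were called in limma and 0 had an unadjusted p under 0.05. The differences ran from -0.13 (Nfe2l1) and -0.11 (Nfe2l2) to 0.15 (Atf2) and 0.22 (Mafg). Of 5 partners below the filter signal, Cebpb, a factor of the acute phase response, fell in the unfiltered fit. It read 277 to 319 in the fragments against 1536 in the whole embryo (-1.63, adjusted p = 0.00103, at most 0.0135 with an Ad or Pp array left out). On MOE430B 1 of 3 fell, the large Maf factor gene Maf, which read 146 and 96.5 in Ad, 309 and 353 in Pp and 956 in the whole embryo (difference -2.21, adjusted p = 0.00692). Its call was lost in the fit of 2 groups. The MOE430A probe set of Maf, below the filter signal, read 221 to 250 in the fragments against 222 in the whole embryo. Its unfiltered difference of 0.089 was not called, so the 2 probe sets of Maf disagreed.

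Of 15 tested genes with known AP-1 sites in their control regions, 6 fell in the fragments on MOE430A and 0 rose, with a median of -0.33. They were the calcium-binding protein gene S100a6 (-3.41), the annexin gene Anxa1 (-2.18), the intermediate filament gene Vim (-1.69), the collagenase gene Mmp2 (-1.63), the galectin gene Lgals3 (-0.79) and the protease inhibitor gene Timp1 (-0.55). Their adjusted p were 0.00212, 0.00027, 0.00276, 0.00301, 0.00795 and 0.0277. The fragment mean of S100a6 (361) lay below the filter signal, so it was tested through its whole-embryo value of 6450. Vim, Mmp2 and Timp1 are also expressed in stromal cells in general. The count was 4 without Ad replicate 1 and 4 without Ad replicate 2, 8 without Pp replicate 1 and 11 without Pp replicate 2.

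**Figure D4:**
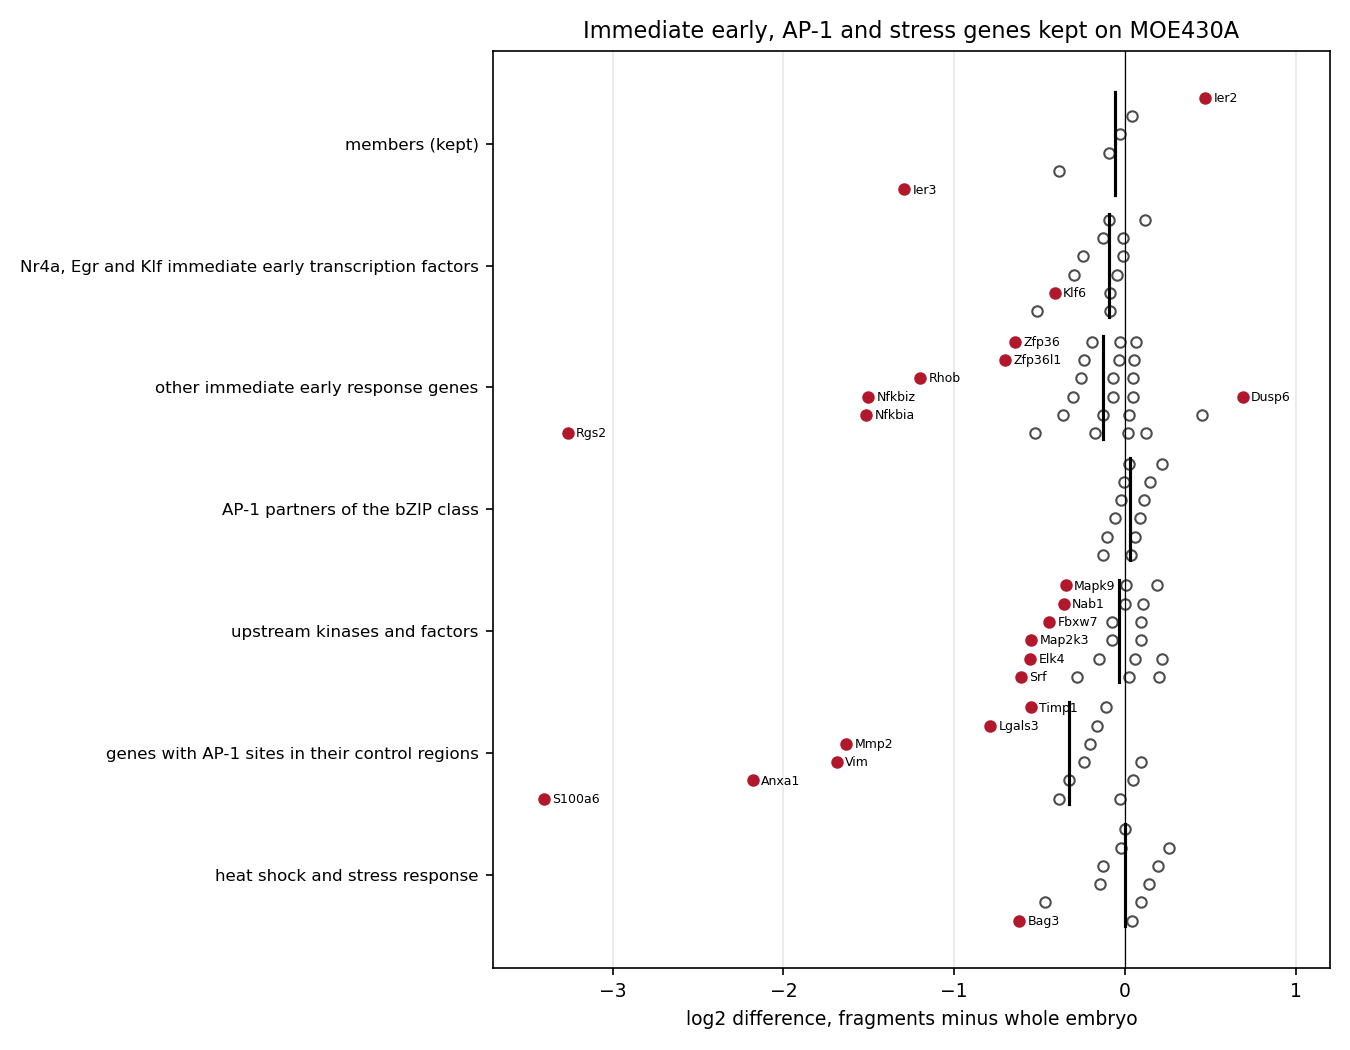
Log2 difference, fragments minus whole embryo, of the members and of 6 related gene lists on MOE430A, with 1 point per gene (its brightest tested probe set). Named red points have an adjusted p under 0.05, open points do not, and thick vertical bars mark list medians; the medians lie between -0.33 and 0.03 and most red points lie to the left of 0, with Ier2 and Dusp6 to the right.

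Between Ad and Pp, 0 genes of these 6 lists were called in limma on either array type. Unadjusted p under 0.05 were found for 4 of 12 Nr4a, Egr and Klf genes, 2 of 27 other response genes, 0 of 12 partners, 2 of 20 upstream genes, 3 of 15 genes with AP-1 sites and 2 of 11 stress genes on MOE430A, against 11.7% of all tested probe sets. With a Pp array left out, some of the other response genes, the genes with AP-1 sites and the stress genes were called. Calls over all tested probe sets rose there as well. On MOE430B 1 partner was called with the replicate block and 1 without Pp replicate 3. The largest differences were -0.64 (Ccn2) and 0.48 (Btg1) among the other response genes, and 0.54 (Krt8) and 0.45 (Mt1) among the genes with AP-1 sites. In the stress list they were 0.49 (Hspb1) and 0.22 (Bag3). On MOE430B Maf differed by -1.47 (adjusted p = 0.111) and Klf6 by -0.70 (adjusted p = 0.423).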

How the data were processed

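RNA of mouse embryos was measured on 10 Affymetrix arrays. Per the submitters' processing notes the authors used MAS5, and the deposited intensity of each probe set is linear and in arbitrary units. Its version and scaling target were not given in the sources used here. No count underlies a value, so precision is limited by the small number of arrays.

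The 2 array types were fitted separately with limma 3.58.1 under R 4.3.3 (lmFit, eBayes, two-sided, 2 residual degrees of freedom). On each type 64 control probe sets were dropped, the 20th percentile (248 on MOE430A, 10.5 on MOE430B) was added before log2, probe sets with a mean above the 40th percentile were kept, and each array was centred on its median. All 5 arrays of a type entered the fit. Folds come from fitted differences. The script was tested on simulated data.

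Platform annotation gave exactly 1 symbol to 20380 probe sets on MOE430A and 14661 on MOE430B, several to 691 and 245 and none to 1555 and 7605. The members and gene lists were chosen with earlier results of these data known. Every member probe set is named; of each list, up to 6 called genes each way by their brightest tested probe set, or otherwise up to 2 each way. Klf10, Egr2, Klf4, Atf3, Nfil3, Gadd45g, Cebpb, Cryab, Nr4a1, Myc, Dusp1, Hspa1b and the marker genes given singly were picked after their values were seen. Alternatives covered scaling (no centring, quantile, cyclic loess), pseudocount (none, with values under 1 set to 1, or the 40th percentile), filter (none or the 60th percentile), an intensity trend, a replicate block, a fit of 2 groups, and leaving out each Ad and Pp array.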

Additional observations from a re-analysis of the deposited data

Results flagged for a closer look

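Among the 14 member probe sets, the 4 fragment arrays of each were examined for a highest or lowest array far from the other 3. In Fos, Pp replicate 2 (signal 460) stood apart, with a gap to the next fragment that was 0.902 of the whole range of the 4. In Junb, Ad replicate 2 (signal 217) stood apart on the low side, with a gap of 0.893 of the range. Chance flags about 1 in 20 such groups, and the 4 fragments are 2 kinds of sample.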

How the results depend on the processing

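Calls between the fragments and the whole embryo on MOE430A depended on the setting. The 2 called members became 4 with no filter, 1 with the replicate block, 1 in separate fits of 2 groups, and 1 to 4 when each Ad or Pp array was left out. Leaving out arrays with no filter, an alternative chosen after seeing the data, gave 0 without either Ad array, 5 without Pp replicate 1 and 6 without Pp replicate 2, where 345, 361, 2779 and 3370 of all 22626 probe sets were called. Between Ad and Pp on MOE430A the 0 called members became 0 to 2 when an array was left out (1 with no filter and without Pp replicate 1). On MOE430B the counts of 1 and 0 did not change under any alternative run. The Fosl2 probe set 1422931_at against the whole embryo turned from 0.039 to -0.041 without centring and to -0.005 after cyclic loess. Leaving out an array turned 5 small Ad minus Pp differences: that of Fosl1 1417487_at ran from -0.084 to 0.094 (-0.054 with no filter and without Pp replicate 1), that of Jund on MOE430A from -0.08 to 0.12 (-0.045 with no filter and without Ad replicate 1) and that of Fosl2 on MOE430B from -0.66 to 0.041 (0.054 and 0.041 with no filter and without Ad replicate 3 or Pp replicate 4). Ier3 turned to 0.010 with no filter and without Pp replicate 2, and the fainter Fosl1 probe set to 0.0018 and 0.015 with no filter and without Ad replicate 1 or Pp replicate 1 (0.024 without centring). The cause was not tested.

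Over all probe sets, Ad minus Pp calls on MOE430A went from 23 to 46 without centring and 0 to 805 with an array left out. On MOE430B they went from 15 to 30 with the larger pseudocount, 2 with no filter, 26 with the stricter filter, 30 with an intensity trend, and 0 to 131 with an array left out. Calls against the whole embryo went from 1327 to between 274 and 3491 on MOE430A with an array left out, and on MOE430B from 299 to 196 with no filter and 90 to 1183 with an array left out. The labels do not say that equal replicate numbers belong together, and the deviations of same-numbered arrays correlated at -0.24 on MOE430A and -0.04 on MOE430B (2 pairs each). The replicate block gave 24 and 29 calls between Ad and Pp and 865 and 396 against the whole embryo on MOE430A and MOE430B. With the pairs crossed on MOE430A, chosen after seeing the data, there were 47 and 1831. The fainter probe sets of Jun and Fosl1, Fosb and Junb lay below the filter signal on every array, as did Fos in the fragments, and the pseudocount weighs on the size of their differences.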
